A study of Mus musculus with 12 samples.

Results

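Megakaryocytes (MKs) of the bone marrow (BM) were compared 5 days after saline and 5 days after sepsis, across all genes of the deposited count table. The comparison used 6 of the 12 libraries of the series, 3 from saline mice (BM saline 1, 2 and 3) and 3 from septic mice (BM sepsis 1, 2 and 3), taken by tissue and treatment label. Of 55536 genes in the table, 13354 had enough reads to be tested. All mice were adult Pf4-TdTomato animals of the C57BL/6 strain, in which Cre driven by the Pf4 promoter switches on a red fluorescent reporter. Saline mice and septic mice thus carried the same transgenes and differed in the injection, which was saline or an intraperitoneal cecal slurry that seeds gut bacteria in the abdomen. The sepsis model of the study also included daily subcutaneous saline against fluid loss. Whether the saline mice received it too is not stated. Each library was made from 300 cells sorted as CD45+ Tom+ CD41+ CD42b+ and negative for lineage markers of NK cells, T cells, myeloid cells, macrophages and B cells, and the other 6 libraries of the series were from splenic MKs. The reporter stays on once Cre has acted, so it marks a cell by its Pf4 history and not by the genes that it expresses when sorted.

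MKs are the large polyploid cells that shed platelets, and they load them with alpha granules that hold chemokines, adhesion proteins and clotting factors. CD41 (Itga2b) and CD42b (Gp1ba) are the platelet receptors for fibrinogen and von Willebrand factor that also serve to sort MKs. In infection the marrow shifts its output toward neutrophils, whose granule proteins are made in a fixed order, with myeloperoxidase and elastase in early precursors and lactoferrin, cathelicidin and lipocalin in later ones. Basophils, which release histamine and cytokines after their IgE receptor is engaged, are also made in the marrow, and their precursors share the transcription factor GATA2 with early MKs.

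No gene passed the test between septic and saline BM MKs. The test was edgeR's quasi-likelihood test with Benjamini-Hochberg adjustment, and 0 of 13354 genes (0%) had an adjusted p under 0.05. There were 540 genes with an unadjusted p under 0.05, and the smallest adjusted p was 0.0685. On the same genes DESeq2 called 38 genes higher after sepsis (0.287% of the 13253 genes that it gave an adjusted p) and 53 lower (0.400%), while limma-voom with quality weights called 0 genes with 693 at an unadjusted p under 0.05. Results below are therefore given as the value of each library, as CPM (reads of a gene per 1e6 reads of its library, scaled with TMM factors), and as whether the 3 sepsis libraries lay above or below all 3 saline libraries. All 3 sepsis libraries lay above the saline libraries in 756 genes (5.66%) and below them in 627 genes (4.70%), and the median log2 fold change over all genes tested was -0.01.

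Total counts were 7756762 to 9379865 after saline and 8249323 to 24574713 after sepsis. The 6 libraries were far apart from each other. The correlation of log2 CPM was 0.731 to 0.830 within a group and 0.727 to 0.800 between groups, and the biological coefficient of variation was 85.4%. The first principal component (24.7% of the variance) set BM saline 1 apart from the rest, and the second (23.4%) had BM saline 2 and BM sepsis 2 at its ends. Reads of the Y-linked gene Ddx3y were found in all 6 libraries, at 59.4 to 177 CPM, and those of Xist, the RNA of the inactive X chromosome, were at 7.0 and 13.9 CPM in BM saline 2 and 3 and at 0 in the other 4.

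The sorted identity was present in every library. Pf4 encodes a chemokine of alpha granules, and its promoter drives the Cre that switches on the reporter. Pf4 was at 21541, 21760.0 and 24636 CPM in BM saline 1, 2 and 3, and at 36934, 15598 and 11412 CPM in BM sepsis 1, 2 and 3. The sepsis libraries lay on both sides of the saline libraries, with a log2 fold change of -0.09 (SE 0.38). Itga2b was at 458, 426 and 356 CPM after saline and at 526, 531 and 185 CPM after sepsis. Gp1ba was at 43.4, 34.3 and 68.9 CPM after saline and at 149, 53.1 and 20.4 CPM after sepsis, and Ptprc, which encodes CD45, was at 131 to 196 CPM after saline and 121 to 145 CPM after sepsis. These genes overlapped between the groups. Tubb1, the platelet beta tubulin, was nearly absent, with 0 CPM in BM saline 1 and BM sepsis 2 and at most 21.8 CPM elsewhere.

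Neutrophil genes had the highest median log2 fold change of the 29 gene lists examined. Of 14 genes listed as neutrophil markers, 12 were tested, and 7 of them (58.3%, against 5.66% of all genes) were higher in every sepsis library than in any saline library. The 7 were S100a8, S100a9, Lcn2, Camp, Elane, Prtn3 and Mpo. None was lower without overlap, 9 had an unadjusted p under 0.05 (against 540 of 13354 genes), and the median log2 fold change of the list was 5.00. DESeq2 also called 7 of the 12 higher (against 0.287% of all genes), but not the same 7. Ngp and Ltf, whose groups overlapped, were among its calls, and Elane and Mpo were not. In bulk libraries of this kind, more cells of a type and more RNA per cell cannot be told apart.

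S100a8 encodes one chain of calprotectin, the abundant calcium-binding protein of neutrophil cytosol, and lies at chr3:90668978-90670035 of GRCm38. It was at 27.4, 70.2 and 24.5 CPM in BM saline 1, 2 and 3 and at 710.1, 5827 and 8432 CPM in BM sepsis 1, 2 and 3. Every sepsis library was above every saline library, but BM sepsis 1 was far below the other two. The log2 fold change was 6.94 (SE 0.91), with an adjusted p of 0.0769 in edgeR. S100a9, the partner chain, lies 22.6 kb away and was at 6.25, 40.5 and 31.1 CPM after saline and at 217, 3609 and 3779.5 CPM after sepsis. It had the same order of sepsis libraries, with a log2 fold change of 6.61 (SE 1.09).

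Genes of the early, azurophil granules were high in all 3 sepsis libraries. Prtn3 encodes proteinase 3 (chr10:79874476-79883174), and Elane encodes neutrophil elastase (chr10:79886247-79888215). The ends of these neighbouring genes are 3.07 kb apart on the plus strand. Prtn3 was at 92.0, 47.2 and 53.0 CPM after saline and at 497, 771 and 3022 CPM after sepsis, a log2 fold change of 4.48 (SE 0.68) with an edgeR adjusted p of 0.160. Elane was at 209, 23.0 and 11.2 CPM after saline and at 1586, 856 and 5114 CPM after sepsis, a log2 fold change of 4.96 (SE 1.12) with an edgeR adjusted p of 0.566. Mpo, myeloperoxidase, was at 81.8, 36.6 and 4.0 CPM after saline and at 171, 1059.5 and 963 CPM after sepsis. For these 3 genes BM sepsis 1 stood closer to the other sepsis libraries than it did for S100a8. Exons of other genes cover 9.18% of Prtn3 and 14.9% of Mpo, and reads from overlapping genes cannot be told apart in these libraries, whose kit does not mark strand.

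Genes of the later granules were highest in BM sepsis 2 and 3. Camp, the cathelicidin antimicrobial peptide (chr9:109847379-109849617), was at 1.48, 13.0 and 1.03 CPM after saline and at 20.1, 1336 and 702 CPM after sepsis. Ngp, neutrophilic granule protein, was at 0.953, 11.1 and 1.42 CPM after saline and at 10.2, 704 and 763 CPM after sepsis. Ltf, lactoferrin, was at 0.644 to 1.45 CPM after saline and at 0.0787, 68.4 and 51.7 CPM after sepsis. In BM sepsis 1 the level of Ngp was thus inside the saline range and that of Ltf below it, so both overlapped. Lcn2, lipocalin 2, which binds bacterial siderophores, was at 9.21, 4.22 and 4.77 CPM after saline and at 29.0, 245 and 328 CPM after sepsis, a log2 fold change of 5.04 (SE 0.82).

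Of the 12 tested neutrophil genes 11 had a positive log2 fold change, and the exception was Cxcr2. Cxcr2, the chemokine receptor of mature neutrophils, was at 4.0 to 8.47 CPM after saline and 2.05 to 6.38 CPM after sepsis, with a log2 fold change of -0.85 (SE 1.12). Ly6g, which encodes the neutrophil surface marker, was too low to test, with at most 2.72 CPM in any library. Retnlg, which encodes a resistin-like protein of neutrophils, was at 6.88, 3.38 and 37.8 CPM after saline and at 0.236, 250.2 and 41.7 CPM after sepsis, so the groups overlapped. Without BM sepsis 1, 11 of the 12 tested neutrophil genes were above all saline libraries, against 1457 of the 13354 genes tested. Without any one other library the number was 7 or 8, against 1284 to 1549 of all genes tested.

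**Figure D1:**
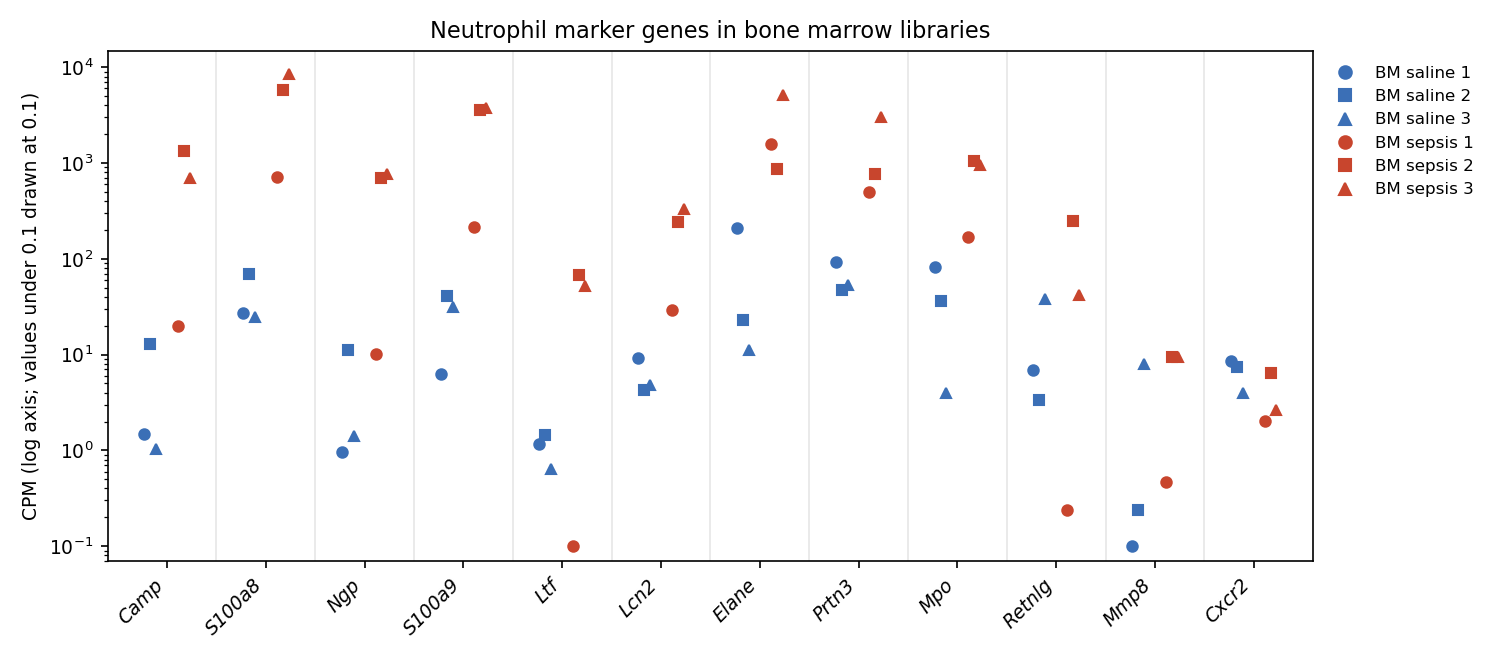
CPM on a log axis of the 12 tested neutrophil marker genes in the 3 saline (blue) and 3 sepsis (red) BM libraries, ordered by log2 fold change, 1 point per library with the shape giving the replicate. S100a8, S100a9, Lcn2, Camp, Elane, Prtn3 and Mpo do not overlap between the groups, and BM sepsis 1 (circle) lies near or within the saline points for Camp and Ngp and below them for Ltf.

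The first 3 promoters that follow are examples from neutrophil genes whose 3 sepsis libraries lay above all saline libraries. The last 2 are examples from the basophil genes described next. Each is 250 bases before to 50 after the start site from RefSeq on GRCm38.p6, and all 12 neutrophil and 9 basophil genes tested were matched in that table. Capitals in Elane, Prtn3 and Lcn2 mark AGGAAG on either strand, the core bound by PU.1 and other ETS factors. Capitals in Fcer1a and Cpa3 mark AGATAA on either strand, the site of GATA factors. All promoters shown carry the marked letters, but not all genes of the 2 lists do. S100a9, also without overlap, has no AGGAAG, and Mcpt8 and Hdc have no AGATAA.
Elane (chr10:79886062-79886361, plus strand): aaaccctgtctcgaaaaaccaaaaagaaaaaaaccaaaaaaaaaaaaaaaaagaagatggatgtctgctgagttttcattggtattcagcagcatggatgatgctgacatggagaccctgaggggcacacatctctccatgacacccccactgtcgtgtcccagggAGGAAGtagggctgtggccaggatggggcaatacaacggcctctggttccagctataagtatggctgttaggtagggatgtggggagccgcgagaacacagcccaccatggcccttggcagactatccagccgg
Prtn3 (chr10:79879417-79879716, plus strand): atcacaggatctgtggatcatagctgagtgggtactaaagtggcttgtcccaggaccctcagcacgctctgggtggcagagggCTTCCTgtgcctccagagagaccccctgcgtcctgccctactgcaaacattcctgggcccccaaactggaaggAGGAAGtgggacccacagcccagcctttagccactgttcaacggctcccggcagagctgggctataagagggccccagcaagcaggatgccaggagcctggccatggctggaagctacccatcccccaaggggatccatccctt
Lcn2 (chr2:32387690-32387989, minus strand): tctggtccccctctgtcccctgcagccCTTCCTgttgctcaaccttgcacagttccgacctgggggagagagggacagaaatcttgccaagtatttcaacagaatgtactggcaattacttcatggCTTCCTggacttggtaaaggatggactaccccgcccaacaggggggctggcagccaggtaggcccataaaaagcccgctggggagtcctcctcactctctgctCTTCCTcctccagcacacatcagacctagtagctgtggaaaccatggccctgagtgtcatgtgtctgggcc
Fcer1a (chr1:173227180-173227479, minus strand): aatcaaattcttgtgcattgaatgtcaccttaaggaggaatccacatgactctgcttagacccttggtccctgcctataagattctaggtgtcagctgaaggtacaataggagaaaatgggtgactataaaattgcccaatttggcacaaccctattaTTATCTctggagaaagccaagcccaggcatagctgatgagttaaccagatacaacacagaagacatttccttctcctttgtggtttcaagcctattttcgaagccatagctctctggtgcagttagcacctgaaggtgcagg
Cpa3 (chr3:20242132-20242431, minus strand): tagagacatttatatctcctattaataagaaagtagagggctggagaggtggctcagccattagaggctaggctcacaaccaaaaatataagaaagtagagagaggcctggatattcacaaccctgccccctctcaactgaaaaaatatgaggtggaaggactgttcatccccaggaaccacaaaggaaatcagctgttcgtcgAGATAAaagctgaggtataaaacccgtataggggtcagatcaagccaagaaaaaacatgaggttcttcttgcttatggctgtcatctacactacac
AGGAAG was found in 9 of the 12 neutrophil promoters and in 2 of the 9 basophil genes, against 35.4% of 32851 promoters of the same length. AGATAA was found in 5 of the 9 basophil genes and in 2 of the 12 neutrophil genes, against 11.2% of all promoters. A C/EBP core, TTGCNNAA on either strand, was found in 6 of the 12 neutrophil genes and in 3 of the 9 basophil genes, against 10.8% of all promoters. These matches describe letters in the windows and not binding.

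Several of the genes with the smallest p outside the neutrophil list were close to 0 CPM in every saline library. Dmkn encodes dermokine, a secreted protein known from skin, and was at 0.318, 0.845 and 0.644 CPM after saline and at 55.9, 75.4 and 467 CPM after sepsis. Wfdc21, a secreted protein with a whey acidic protein domain, was at 0.953, 3.86 and 1.03 CPM after saline and at 71.4, 283 and 530.4 CPM after sepsis. These 2 genes had the smallest adjusted p in edgeR, 0.0685 each, with log2 fold changes of 8.36 (SE 1.02) and 7.24 (SE 0.90). Both were ordered like S100a8, lowest in BM sepsis 1 and highest in BM sepsis 3. Mcemp1, a membrane protein first found in mast cells, was at 0 to 0.530 CPM after saline and at 2.60, 27.9 and 102 CPM after sepsis.

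The next 3 genes were also nearly absent after saline but stayed at low levels after sepsis. Mvd, an enzyme of the mevalonate pathway to cholesterol, was at 0.635 to 0.902 CPM after saline and at 18.5, 37.1 and 9.38 CPM after sepsis. Wdr55, a nucleolar protein, was at 0.212 to 2.96 CPM after saline and at 26.1, 29.6 and 75.4 CPM after sepsis. Dhrs13, a short-chain dehydrogenase, was at 0.121 to 0.741 CPM after saline and at 9.06, 20.5 and 33.0 CPM after sepsis. Exons of other genes cover 19.6% of Dhrs13 and 7.6% of Wdr55, so some of their reads may come from those genes. The edgeR adjusted p of the 3 genes was 0.406 to 0.421.

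Basophil and mast cell genes were read in all 6 libraries, and no gene of the list passed the edgeR test. Of 10 genes on that list 9 were tested, all 9 had a negative log2 fold change with a median of -1.45, and 6 had an unadjusted p under 0.05. The 3 genes Fcer1a, Cd200r3 and Hdc were lower in every sepsis library than in any saline library (33.3% of the list, against 4.70% of all genes), and the other 6 overlapped. DESeq2 called 3 of the list lower, against 0.400% of all genes. These were Fcer1a, Cd200r3 and Mcpt8, of which Mcpt8 overlapped. The summed CPM of the list was 13864, 35865 and 6208 in BM saline 1, 2 and 3 and 6818, 3494 and 8045 in BM sepsis 1, 2 and 3. BM saline 2 thus held far more than any other library, and BM saline 3 fell among the sepsis libraries.

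Fcer1a, the alpha chain of the high-affinity IgE receptor (chr1:173221284-173227214), was at 763, 1654 and 527 CPM after saline and at 156, 102 and 239 CPM after sepsis. The log2 fold change was -2.57 (SE 0.48), with an edgeR adjusted p of 0.406. Cd200r3, an activating receptor of basophils, was at 463, 753 and 302 CPM after saline and at 162, 75.1 and 156 CPM after sepsis. Hdc, which makes histamine, was at 166, 154 and 68.2 CPM after saline and at 33.7, 61.9 and 45.7 CPM after sepsis. These 3 genes kept the groups apart, while the basophil proteases did not. Mcpt8, the mouse basophil protease, was at 6144, 16033 and 2579 CPM after saline and at 2934, 1328 and 3115 CPM after sepsis. Prss34 was at 4875, 13580.0 and 1854 CPM after saline and at 2630.1, 1371 and 3416 CPM after sepsis, and Cpa3, a mast cell and basophil carboxypeptidase, was at 573 to 2656 CPM after saline and at 169 to 743 CPM after sepsis. Without BM saline 3, 8 of the 9 genes lay below the remaining saline libraries, against 1464 of 13354 genes. Without BM sepsis 2, 5 of the 9 did so, against 1144 of 13354. Without any one of the other 4 libraries the number was 3, against 1112 to 1300.

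Ccl3, Ccl4 and Ccl6 encode chemokines that draw monocytes and other leukocytes, and they sit in one cluster on chromosome 11. Ccl3 (chr11:83647844-83649355) was at 1495, 2226 and 776 CPM after saline and at 320.2, 170.2 and 411 CPM after sepsis, a log2 fold change of -2.32 (SE 0.45). Ccl4 lies 13.2 kb away and was at 799, 1538 and 565 CPM after saline and at 123, 33.0 and 180.2 CPM after sepsis, a log2 fold change of -3.11 (SE 0.60). Ccl6 was at 1262, 2329 and 721 CPM after saline and at 265, 125 and 489 CPM after sepsis, a log2 fold change of -2.29 (SE 0.54). In all 3 genes BM saline 2 was highest and BM sepsis 2 lowest, as for Fcer1a. Wfdc21, with the opposite direction, lies 82.3 kb from Ccl4 on the same chromosome.

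Of 14 inflammatory genes on the list 11 were tested, of which Ccl3, Ccl4, Il6 and Nfkbia were lower without overlap (36.4%, against 4.70%) and Lcn2 was higher. The median log2 fold change was -0.90, and DESeq2 called 3 lower and 1 higher, against 0.400% and 0.287% of all genes. Il6, the acute-phase cytokine, was at 69.6, 218 and 68.7 CPM after saline and at 8.43, 11.2 and 35.8 CPM after sepsis, a log2 fold change of -2.68 (SE 0.68) with an edgeR adjusted p of 0.739. Nfkbia, the inhibitor that NF-kB induces, was at 102, 77.8 and 99.1 CPM after saline and at 51.6, 40.1 and 57.9 CPM after sepsis. Both had every saline library above every sepsis library, Nfkbia by the smaller margin. Ccl5 overlapped because BM saline 3 had only 0.773 CPM, against 86.9 and 229.8 CPM in BM saline 1 and 2 and 7.46 to 14.3 CPM after sepsis.

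**Figure D2:**
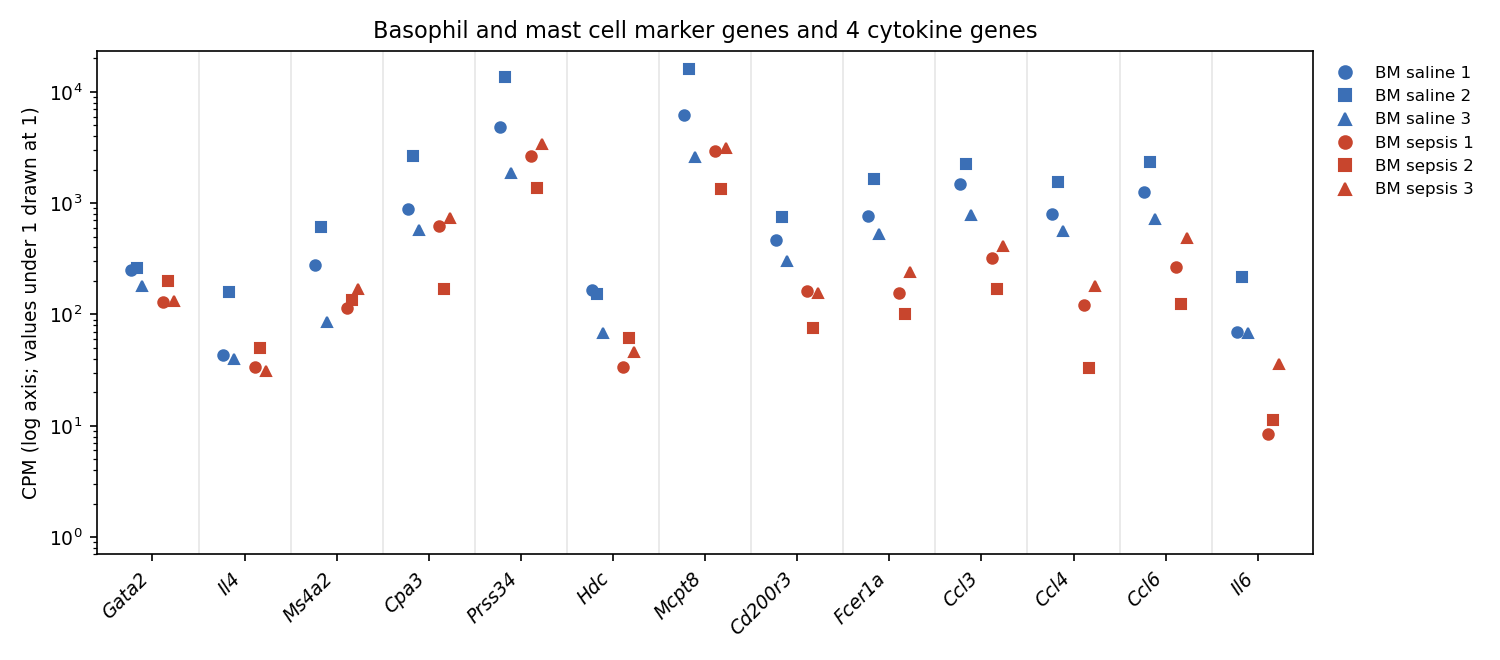
CPM on a log axis of the 9 tested basophil and mast cell marker genes and of Ccl3, Ccl4, Ccl6 and Il6 in the 3 saline (blue) and 3 sepsis (red) BM libraries, 1 point per library with the shape giving the replicate. Fcer1a, Cd200r3, Hdc and the 4 cytokine genes are lower in all 3 sepsis libraries, and BM saline 2 (blue square) is the highest point for each gene but Hdc.

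The MK genes themselves lay on both sides of the saline level after sepsis. All 10 tested adhesion receptors, 11 granule cargo genes, 12 platelet signaling genes and 12 MK transcription factors overlapped between the groups, with median log2 fold changes of 0.00, 0.06, -0.14 and -0.03. Of 12 proplatelet cytoskeleton genes (median 0.12), Was, an actin regulator, was higher without overlap (8.33%, against 5.66% of all genes), at 28.0 to 46.8 CPM after saline and 48.6 to 79.1 CPM after sepsis. Vwf, von Willebrand factor, was at 317 to 339 CPM after saline and at 503, 375 and 138 CPM after sepsis, and Ppbp, a platelet chemokine, was at 3345 to 8177 CPM after saline and at 17669, 1613 and 1628 CPM after sepsis.

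The spread of MK genes was wider after sepsis than after saline. The summed CPM of the granule cargo genes was 30234, 34321 and 31361 in the saline libraries and 59898, 20374 and 16269 in BM sepsis 1, 2 and 3. The summed neutrophil markers ran the other way among the septic mice, at 3244, 14749 and 23215 CPM in BM sepsis 1, 2 and 3, and at 182 to 445 CPM after saline. Thus BM sepsis 1 had the highest granule cargo sum and the lowest neutrophil sum of the 3, while the MK transcription factor sum was highest in BM sepsis 2, at 2099 CPM against 2025 in BM sepsis 1. CPM are shares of a library, and the part of this in the 2 opposite orders was not tested. Without BM sepsis 1, 4 of the 11 granule cargo genes, 4 of the 12 signaling genes, 4 of the 12 cytoskeleton genes and 2 of the 10 adhesion receptors were lower after sepsis without overlap, against 1296 of 13354 genes, and 1 cytoskeleton gene was higher, against 1457 of 13354. Without BM sepsis 3 the direction was the opposite. Then 2 of the 11 cargo genes, 2 of the 12 cytoskeleton genes and 2 of the 10 adhesion receptors were higher, against 1284 of 13354 genes. In that case 0 signaling genes were higher, and 0 genes of the 4 lists were lower, against 1112 of 13354.

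**Figure D3:**
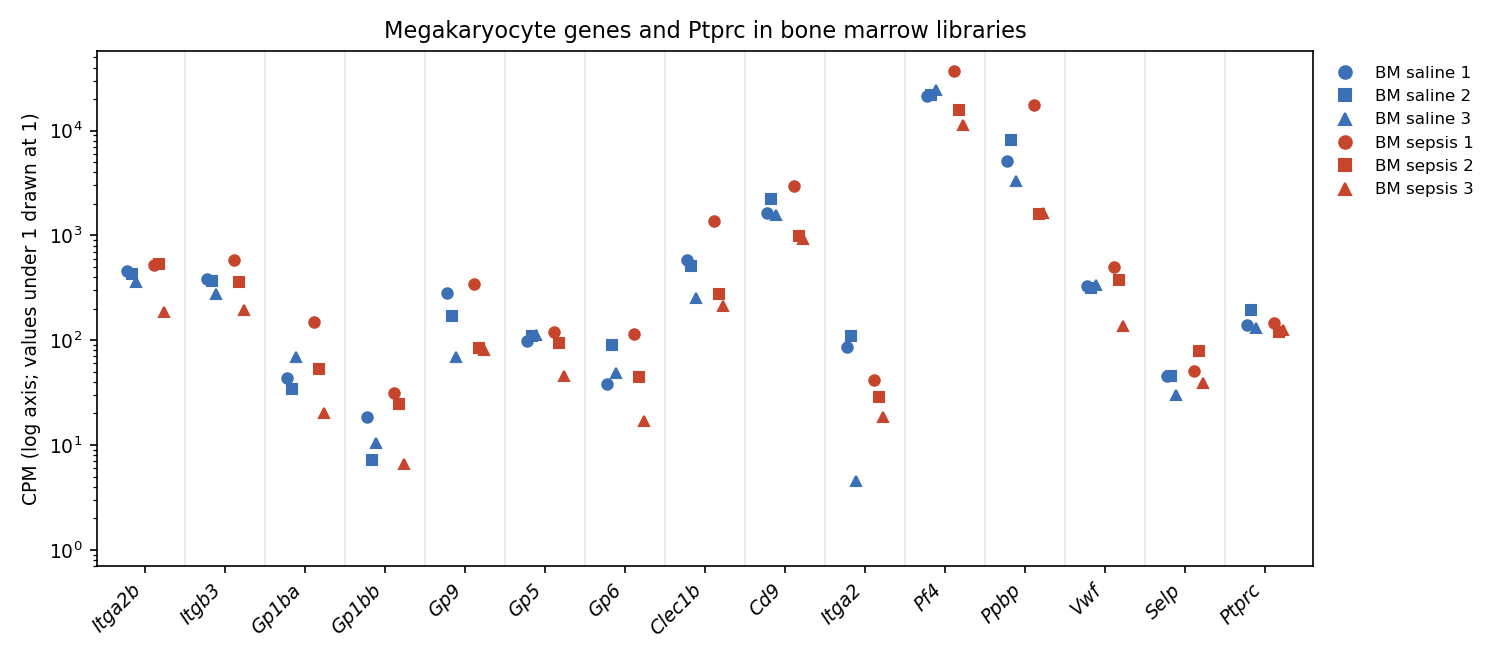
CPM on a log axis of the 10 adhesion receptor genes, 4 granule cargo genes and the CD45 gene Ptprc in the 3 saline (blue) and 3 sepsis (red) BM libraries, 1 point per library with the shape giving the replicate. No gene separates the groups, and BM sepsis 1 (red circle) is the highest library for Pf4 and Ppbp while BM sepsis 3 (red triangle) is the lowest for Pf4.

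Genes of the axis that the study follows were low or overlapped. Cd40lg, which encodes CD40 ligand, was too low to test, with 0.424 CPM in BM saline 1 and 0 in the other 5 libraries, where a count of 0 allows up to 0.125 to 0.387 CPM (3 counts). Selp, the gene of P-selectin, was at 30.3 to 45.9 CPM after saline and at 38.9 to 78.6 CPM after sepsis, a log2 fold change of 0.47 (SE 0.43). Il3ra, the alpha chain of the IL-3 receptor, was at 1.38, 3.74 and 1.55 CPM after saline and at 1.73, 13.6 and 7.79 CPM after sepsis, a log2 fold change of 1.79 (SE 1.25). Csf2rb, its shared beta chain, was at 104 to 236 CPM after saline and at 26.5, 120.2 and 201 CPM after sepsis.

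Among 12 cytokine receptor genes of MKs, Il6st and Ifnar1 were higher and Cxcr4 lower without overlap. Il6st, the shared signaling chain gp130 of the IL-6 family, was at 3.81, 2.90 and 3.61 CPM after saline and at 14.8, 29.8 and 16.0 CPM after sepsis, a log2 fold change of 2.55 (SE 0.77). Ifnar1, a chain of the type I interferon receptor, was at 6.06 to 10.8 CPM after saline and 12.3 to 19.1 CPM after sepsis. Cxcr4, the receptor that holds cells in the marrow through CXCL12, was at 40.4, 56.5 and 39.8 CPM after saline and at 14.3, 15.4 and 28.5 CPM after sepsis, a log2 fold change of -1.23 (SE 0.48). These are 2 of 12 genes above and 1 of 12 below, against 5.66% and 4.70% of all genes.

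Interferon response and heat shock genes had medians under 0. Of 16 interferon response genes 10 were tested, with a median log2 fold change of -0.14. Rsad2 and Usp18 were lower without overlap, at 4.12 to 14.2 and 9.64 to 17.1 CPM after saline and at 0.417 to 3.76 and 3.04 to 8.58 CPM after sepsis (20% of the list, against 4.70%). Of 11 immediate-early and heat shock genes tested, 10 had a negative log2 fold change (median -0.74). The inducible Hsp70 genes Hspa1a and Hspa1b were lower without overlap (18.2%, against 4.70%), but their levels after sepsis were 0 to 0.627 and 0 to 3.55 CPM, and their near-identical sequences can share reads. Of 10 MHC class I genes only Nlrc5, the activator of MHC class I genes, was higher without overlap (10%, against 5.66%), at 3.18 to 12.9 CPM after saline and 19.5 to 27.4 CPM after sepsis. Of 11 unfolded protein response genes only Asns was, the asparagine synthetase that ATF4 induces, at 19.2, 15.3 and 9.15 CPM after saline and at 84.9, 33.7 and 81.4 CPM after sepsis (9.09%, against 5.66%).

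Genes of DNA replication and mitosis overlapped. All 14 DNA replication genes (median log2 fold change 0.40, 11 positive) and all 14 mitosis genes (median 0.05) had sepsis and saline libraries on both sides of each other. Without BM sepsis 1, 6 of the 14 DNA replication genes and 1 of the 14 mitosis genes were higher without overlap, against 1457 of 13354 genes. Without any one other library 0 to 2 of the DNA replication genes were, against 1284 to 1549 of 13354 genes. Of the 14 mitosis genes, 4 were higher without BM saline 3, against 1549 of 13354. Leaving out any one of the remaining libraries gave 0 or 1 mitosis gene higher. Of 9 tested cyclin and CDK inhibitor genes, Ccnd2, a D cyclin, was above without overlap (11.1%, against 5.66%), at 171 to 245 CPM after saline and 261 to 391 CPM after sepsis. All 12 glycolysis and hypoxia genes overlapped (median 0.17).

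Cytoplasmic ribosomal protein genes gave an even difference on the TMM scaling. Their summed CPM was 78664, 79440 and 79433 in BM saline 1, 2 and 3 and 87677, 88520 and 91413 in BM sepsis 1, 2 and 3. On this scaling all sepsis libraries were above all saline libraries. The TMM factors were 1.03, 0.913 and 1.01 after saline and 0.914, 1.18 and 0.982 after sepsis. They vary more than these sums do, so the order of the libraries rests on the scaling. Sums with library size alone were not taken. Of 80 genes tested, 76 had a positive log2 fold change with a median of 0.16, and 18 (22.5%, against 5.66%) were higher without overlap with 0 lower. None of the 80 had an unadjusted p under 0.05. Transcripts of the mitochondrial genome summed to 43370 to 45656 CPM after saline and to 48355, 34450 and 32401 CPM after sepsis, with a median log2 fold change of -0.27 over 21 tested. Of its 37 genes, 12 had no read in any BM library, among them mt-Co2, mt-Co3, mt-Atp6 and mt-Atp8. The sums thus cover only part of the mitochondrial genes.

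Erythroid genes lay in both directions. Of 11 tested, 5 were lower without overlap (45.5%, against 4.70%), 2 were higher (18.2%, against 5.66%) and 4 overlapped, with a median log2 fold change of -1.57. Hbb-bs, a beta globin, was at 104, 118 and 278 CPM after saline and at 10.2, 1.05 and 46.4 CPM after sepsis, a log2 fold change of -3.11 (SE 1.0). Hba-a2, an alpha globin, was at 26.4, 25 and 60.2 CPM after saline and at 1.3, 0.941 and 10.7 CPM after sepsis. Hbb-bt, Hba-a1 and Slc4a1, the anion exchanger of red cells, were the other 3, and the globin pairs are near-identical copies between which reads can be split. The 2 higher genes were Tfrc, the transferrin receptor, at 63.9, 66.4 and 85.4 CPM after saline and at 97.8, 178 and 189.6 CPM after sepsis, and Klf1, the erythroid transcription factor. Klf1 had no read in any saline library and was at 8.66, 2.09 and 2.46 CPM after sepsis, a mean at least 12.4-fold higher when each saline library is given 3 counts. Alas1, the first enzyme of heme synthesis outside red cells, was at 9.89 to 12.6 CPM after saline and at 20.8, 47.1 and 94.2 CPM after sepsis, a log2 fold change of 2.28 (SE 0.60), and with Tfrc made up the 2 of 8 tested iron and heme genes that were higher without overlap (25%, against 5.66%). Without any one library the number of erythroid genes lower without overlap stayed at 5. Over all 13354 genes that number was 1112 to 1464 without 1 library, against 627 with all 6.

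No B cell gene passed the edgeR test. Of 13 tested, 12 had a negative log2 fold change (median -1.05) and 5 were lower without overlap (38.5%, against 4.70%). DESeq2 called 1 of them lower, against 0.400% of all genes. Cd79a, a signaling chain of the B cell receptor (chr7:24897381-24902197), was at 105, 74.2 and 44.2 CPM after saline and at 15.8, 7.53 and 8.84 CPM after sepsis. This was a log2 fold change of -2.79 (SE 0.52) with an edgeR adjusted p of 0.406. H2-Ab1, a chain of MHC class II, was at 127, 92.7 and 52.2 CPM after saline and at 38.0, 18.6 and 42.6 CPM after sepsis. H2-Aa, Cd74 and Ms4a1, which encodes CD20, were the others. Jchain, the joining chain made by plasma cells, was at 1674 to 5587 CPM after saline and 1652 to 2639 CPM after sepsis, although the sort left out CD138+ cells. Immunoglobulin and T cell receptor segments took 1.04% to 4.23% of the counts. Of 57 such genes tested 9 were lower and 1 was higher without overlap, against 627 (4.70%) and 756 (5.66%) of 13354 genes. An unadjusted p under 0.05 was found in 23 of the 57, against 540 of 13354 genes, and 4 were among the 20 genes with the smallest p. DESeq2 called 8 of the 57 lower and 2 higher, against 0.400% and 0.287% of all genes that it gave an adjusted p.

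Markers of the remaining cell types were examined in the same way. Of 12 tested monocyte and macrophage genes 11 had a positive log2 fold change (median 1.43), and Ly6c2, Vcam1 and Mrc1 were higher without overlap (25%, against 5.66%). Ly6c2, which encodes the Ly-6C surface protein of inflammatory monocytes and myeloid precursors, was at 52.2, 143 and 184 CPM after saline and at 334, 333 and 987 CPM after sepsis, a log2 fold change of 2.12 (SE 0.56). Vcam1 and Mrc1 were at low levels, with no more than 4.34 CPM after saline and with 8.90 to 16.5 CPM after sepsis. Of 5 tested stromal and endothelial genes Cxcl12 and Col1a2 were higher without overlap (40%, against 5.66%), at 0 to 3.71 CPM after saline, and at 8.96 to 11.7 and 3.50 to 39.9 CPM after sepsis. Of 6 tested T and NK cell genes Il7r, the IL-7 receptor, was lower (16.7%, against 4.70%), at 66.3, 42.2 and 36.0 CPM after saline and at 21.4, 7.53 and 12 CPM after sepsis. Of 9 stem and progenitor genes Ly6a, which encodes Sca-1, was lower (11.1%, against 4.70%), at 72.2, 104 and 23.3 CPM after saline and at 17.2, 4.18 and 16.1 CPM after sepsis. All 6 plasma cell genes and all 5 dendritic cell and eosinophil genes overlapped.

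**Figure D4:**
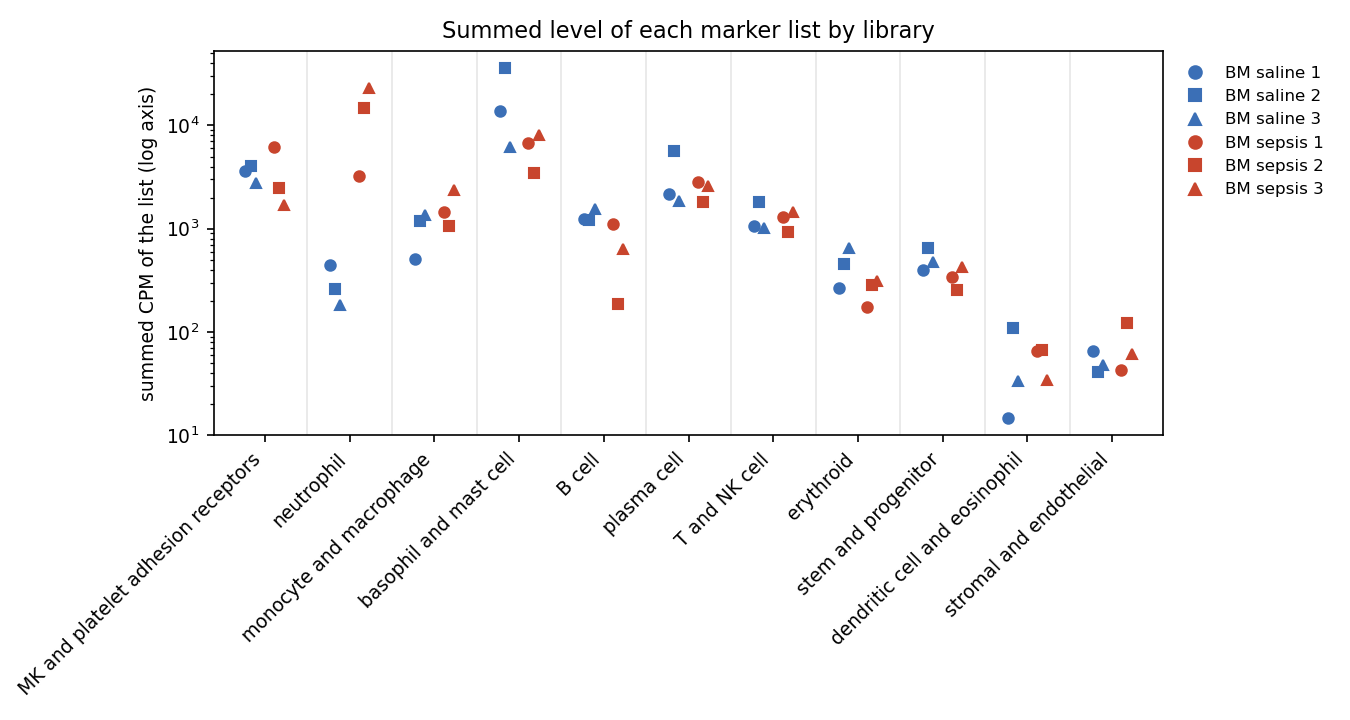
Summed CPM on a log axis of the MK adhesion receptors and of 10 marker lists of other cell types in the 3 saline (blue) and 3 sepsis (red) BM libraries, 1 point per library with the shape giving the replicate. The neutrophil and B cell sums are the ones that do not overlap between the groups, with 182 to 445 against 3244 to 23215 CPM for neutrophil genes and 1225 to 1556 against 186 to 1105 CPM for B cell genes.

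Among the 10 genes with the smallest p on the lower side, 4 were outside the lists and low. Glrp1 was at 30.7, 39.5 and 43.8 CPM after saline and at 8.50, 3.45 and 4.67 CPM after sepsis, a log2 fold change of -2.77 (SE 0.61). Enkur, a protein of cilia and sperm, was at 2.75, 13.5 and 12 CPM after saline, with 0 counts in BM sepsis 1 and 2 and 0.0417 CPM in BM sepsis 3. Slc4a10, a bicarbonate transporter, was at 3.92, 18.9 and 3.61 CPM after saline and at the same levels after sepsis as Enkur. Vmn1r184, of the vomeronasal receptor family, was at 26.2, 4.95 and 1.29 CPM after saline and had no read after sepsis. Taking 3 counts in each sepsis library, the saline means of these last 3 genes were at least 41.9, 39.2 and 48.0-fold higher.

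**Figure D5:**
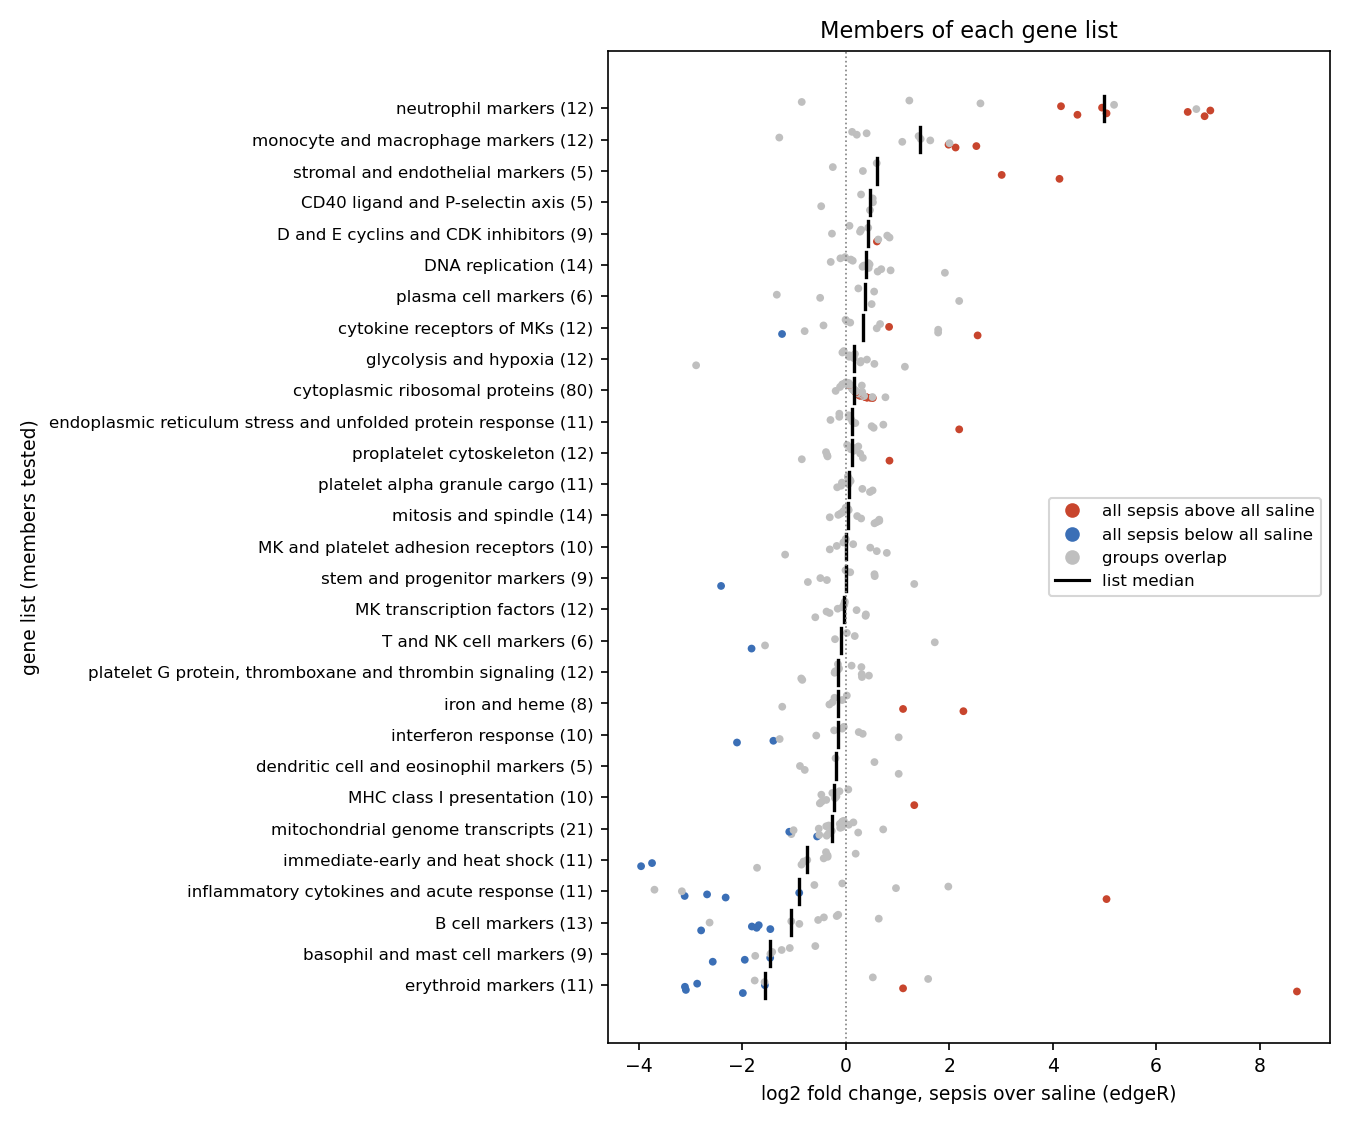
Log2 fold change of sepsis over saline (edgeR) of each tested member of the 29 gene lists, with 1 point per gene and a black bar at the list median. Points are red where all sepsis libraries are above all saline libraries, blue where all are below and grey where the groups overlap. Neutrophil markers have the highest median (5.00) and erythroid markers the lowest (-1.57), while the MK lists lie near 0.

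The same contrast was available in the spleen with 3 libraries in each group. In a fit of all 12 libraries the neutrophil list had a median log2 fold change of 4.75 in BM and of -1.01 in spleen, and the basophil list of -1.44 in BM and of -4.59 in spleen. For the spleen contrast Il4, Cpa3 and Ms4a2 had an edgeR adjusted p of 0.0127, 0.0307 and 0.0400. The share of all genes under 0.05 in that contrast was not taken, so these values do not set the list apart. Genes outside the list were also under 0.05 there, among them Ccl4 (0.00667), Ccl3 (0.0133) and Tyrobp (0.0307). The other basophil genes tested were at 0.0638 or above. An interaction of tissue and treatment was tested for each gene in edgeR, and 0 of 20263 genes passed, with 1556 at an unadjusted p under 0.05 and a smallest adjusted p of 0.0764. DESeq2 called 495 and limma-voom 0. For the neutrophil genes the smallest adjusted p of the interaction in edgeR was 0.543 and for the basophil genes 0.234, so a difference between the tissues was not shown for either.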

How the data were processed

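RNA was measured in MKs from the BM of Pf4-TdTomato mice, 3 libraries after saline and 3 after sepsis, described as independent replicates. The authors deposited raw read counts for 55536 genes in 12 libraries. The submitters' processing notes name STAR 2.7.2b, R 3.6.1, DESeq2 1.26 and GRCm38, while for annotation and counting the settings were not given in the sources used here. All identifiers matched GENCODE M21, which gave symbols and positions.

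Counts of the 6 BM libraries were kept by filterByExpr with a minimum count of 10, scaled with TMM and tested with edgeR 4.0.16 (quasi-likelihood, R 4.3.3), 1 mean per group, with Benjamini-Hochberg adjusted p under 0.05 as the call. The SE is the log2 fold change divided by the square root of F. The splenic libraries entered only the interaction and 1 alternative, since their spread would otherwise set that of the BM fit. Alternatives used DESeq2 1.42.0 and limma 3.58.1. Python 3.11.15 with pandas 2.3.3 summarized lists, and matplotlib 3.10.9 drew the plots. The procedure was tested on simulated data.

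The comparison and the 29 gene lists were chosen with earlier results of these data known. Named genes are the 10 with the smallest p in each direction among those without overlap, leaving out immunoglobulin and T cell receptor segments, predicted models and pseudogenes, the genes of the sorted proteins and of the CD40 ligand and IL-3 axis, and the first 4 of each list where needed. Other list members are named because their groups did not overlap, and Retnlg beside the neutrophil genes, all after their values were seen. Where a gene had 0 counts, 3 counts were taken as its upper limit, which covers counting error only. Replicate pairs differed by more than sampling noise (chi-square per degree of freedom 62.2 to 151), so each library counted as 1 sample.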

Additional observations from a re-analysis of the deposited data

How the results depend on the processing

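Main counts of called genes were 0. With library size alone 3 genes were called, all higher (Dmkn, Wfdc21 and S100a8), and with counts thinned to 7756762 per library the same number, 3 higher. Without a filter 107 of 40440 genes were called, 54 higher and 53 lower, and DESeq2 called 91, 38 higher and 53 lower. RLE factors, a stricter filter of 10 counts in 4 libraries, limma-voom, a fit of all 12 libraries, a minimum log2 fold change of 1 and removal of immunoglobulin and T cell receptor segments called 0, with smallest adjusted p from 0.0516 to 0.988. Leaving out 1 library gave 0 to 11 calls, 0 to 11 higher and 0 to 2 lower. The 11 came without BM sepsis 1 and were S100a8, Lcn2, Wfdc21, Igkv8-24, S100a9, Dmkn, Prtn3, Ngp, Ltf, Camp and Mcemp1, while 3 were called without BM saline 2 and 3 without BM sepsis 3. For the interaction DESeq2 called 495 genes, and leaving out 1 of the 12 libraries gave 3 to 48. The causes were not tested, except that fewer samples and other genes tested are part of these alternatives.

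BM libraries with the same replicate number did not deviate together over all genes tested (correlations of -0.0278, -0.0578 and 0.0154), so the numbers were not taken to pair them. The splenic libraries were not examined in this way. On the scaling of all 12 libraries, S100a8 was at 9679, 162 and 142 CPM in spleen saline 1, 2 and 3. It was at 5140, 27.5 and 19.3 CPM in spleen sepsis 1, 2 and 3, so replicate 1 was highest in both groups. Elane was highest in spleen saline 2 (9.90 CPM) and spleen sepsis 3 (47.7 CPM). With the replicate block 5 genes were called, 4 higher and 1 lower (S100a9, Dmkn, Wfdc21, S100a8 and Iglv2), and 0 for the interaction.

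Of the named genes, those with a changed direction under any alternative all had an adjusted p near 1. Itga2b was at -0.0393 (log2) with RLE factors, -0.0033 with the stricter filter, -0.0393 with DESeq2, -0.30 with limma-voom, -0.14 with the replicate block, -0.0022 without segments and -0.20 to 0.37 without 1 library. With limma-voom Gp1ba was at -0.026, Ppbp at -0.66, Vwf at -0.32 and Tubb1 at -0.80, and with the replicate block Ppbp was at -0.62, Vwf at -0.13 and Tubb1 at -3.13. Without 1 library the ranges were -0.71 to 0.23 for Pf4, -0.38 to 1.06 for Gp1ba, -1.08 to 0.0837 for Csf2rb, -0.77 to 0.28 for Jchain, -1.74 to 0.81 for Ppbp, -0.32 to 0.44 for Vwf and -3.89 to 0.84 for Tubb1. Depth limits what can be said of genes under about 1 CPM, and the spread between libraries limits the rest.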

Other observations

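Outside the lists, more genes of signaling proteins and enzymes did not overlap between the groups, and the 8 given here were chosen after their values were seen. None passed the test, and all had an edgeR adjusted p of 0.505 to 0.761. On the lower side were Osm, which encodes the cytokine oncostatin M, Il18r1, a chain of the IL-18 receptor, Ccl9, a chemokine gene of the same cluster as Ccl3, and Tyrobp, the adaptor DAP12 of activating immune receptors. Osm was at 69.7, 93.2 and 30.3 CPM in BM saline 1, 2 and 3 and at 10.7, 0.941 and 13.1 CPM in BM sepsis 1, 2 and 3. Il18r1 was at 55.0, 118 and 37.8 CPM after saline and at 15.0, 0.941 and 7.17 CPM after sepsis. Ccl9 was at 659, 1257 and 437 CPM after saline and at 236, 189.6 and 371 CPM after sepsis. Tyrobp was at 1676, 3049.8 and 996 CPM after saline and at 530.3, 525 and 991 CPM after sepsis, so that BM saline 3 and BM sepsis 3 were nearly equal. In all 4 genes BM saline 2 was the highest library and BM sepsis 2 the lowest, which is also the order of Fcer1a and Ccl3.

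On the higher side were Gstm1, a glutathione transferase, Gda, guanine deaminase, Hmces, a protein that binds abasic sites in DNA, and Sgms2, a sphingomyelin synthase. Gstm1 was at 50.2, 130.1 and 67.3 CPM after saline and at 185, 253 and 529 CPM after sepsis, a log2 fold change of 1.97 (SE 0.49). Gda was at 22.0, 24.9 and 15.6 CPM after saline and at 36.1, 129 and 131 CPM after sepsis, a log2 fold change of 2.24 (SE 0.53). Gstm1 and Gda rank the sepsis libraries as S100a8 does, with BM sepsis 1 lowest. Hmces was at 0.530, 2.05 and 5.15 CPM after saline and at 36.3, 19.9 and 40.6 CPM after sepsis, with BM sepsis 2 lowest. Sgms2 had 0 counts in BM saline 1 and 2 and 0.129 CPM in BM saline 3, against 3.15, 3.97 and 44.1 CPM after sepsis.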
